A study of Homo sapiens with 16 samples.

Results

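CTCF and acetylated histone H3 were followed on the same chromatin intervals of HEK293 cells before and after hyperosmotic stress, and the comparison described here asks at which intervals the 2 responses differed. HEK293 is an established human embryonic kidney line, here with an eGFP-YAP genotype, and the series' design text gives serum starvation for 1 h before the stress. CUT&Tag was used, in which an antibody directs a Tn5 transposase to its target on permeabilised nuclei, so that nearby DNA is tagged and sequenced. The 4 groups were CTCF with vehicle, CTCF with 200 mM sorbitol for 1 h, H3K27ac with vehicle and H3K27ac with 200 mM sorbitol for 1 h, each with 2 libraries, that is 8 of the 16 libraries of the series. The column names give vehicle as 0 h and sorbitol as 1 h, while the treatment protocol has untreated cells collected in parallel, so whether time also differed between the groups is not settled by the labels. Intervals were kept if they lay on chromosomes 1 to 22 or X and outside the YAP1 gene, which left 73975 of the 74404 intervals that all libraries share (417 lay on other sequences and 12 inside the YAP1 gene). A count filter passed 67119 of them to the test and left out 6856. Nothing in the labels says that replicates came from separate cultures, so p-values measure the spread between these libraries only.

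CTCF is a zinc finger protein that binds a conserved DNA motif, blocks loop extrusion by the cohesin ring and so anchors chromatin loops and domain borders. H3K27ac is an acetyl mark on lysine 27 of histone H3, deposited by p300 and CBP, that marks active promoters and enhancers. Promoters rich in CG dinucleotides carry strong H3K27ac, and many also bind CTCF. A hyperosmotic medium shrinks cells and crowds their nuclei, and it turns on stress kinases, immediate early transcription factors and osmolyte transporters.

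Kept counts (in M, 1e6) were 3.62 and 2.48 M in the CTCF vehicle libraries, 1.52 and 1.57 M in the CTCF sorbitol libraries, 6.37 and 6.35 M in the H3K27ac vehicle libraries and 8.60 and 7.59 M in the H3K27ac sorbitol libraries. CTCF was thus the less deeply read target, and its depth was lower with sorbitol. The mitochondrial share of counts moved with the CTCF groups, at 17.8% ± 3.03 with vehicle and 33.3% ± 0.783 with sorbitol (SD, n = 2), and was 2.05% ± 0.0344 and 1.97% ± 0.0233 for H3K27ac. Mitochondrial intervals were not in the test, and the part of this share in the results was not tested. H3K27ac marked the start sites of PAX2, LHX1 and SALL1, kidney developmental factors, while 6 of 7 markers of other cell types had no interval there. The exception was INS, with 1 interval.

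Sequences of 11 named intervals are shown because the direction of the difference, over all tested intervals, went with base composition and with the CTCF motif. In the first set, CTCF fell. Of the 8 falls named for the size of their difference these are the 4 that hold the motif; the best matches at SLC41A1, SULF2, COX6CP11 and STEAP3 had 3, 3, 2 and 2 mismatches. The capitals mark the best match to the 14-letter CTCF consensus, with at most 1 mismatch. The strands and hg38 positions are chr12:111753329-111753388 plus (exon of ACAD10, 218 bp from a start site), chr1:202119110-202119169 minus (intergenic, nearest gene GPR37L1), chr10:60768976-60769035 minus (intergenic, nearest gene CDK1) and chr3:100254340-100254399 minus (intron of ENSG00000287378).
ACAD10: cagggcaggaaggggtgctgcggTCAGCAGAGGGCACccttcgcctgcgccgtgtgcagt
GPR37L1: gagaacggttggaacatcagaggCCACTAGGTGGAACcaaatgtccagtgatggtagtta
CDK1: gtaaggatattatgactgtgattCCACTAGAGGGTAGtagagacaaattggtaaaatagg
ENSG00000287378: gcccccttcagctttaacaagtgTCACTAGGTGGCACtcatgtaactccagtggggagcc
In the second set, CTCF rose. These are the central 60 bases of the interval on the plus strand, with each CG dinucleotide in capitals, for the CTCF rises named for the size of their difference, ACTG1 apart. They lie at chr9:137242469-137242528 (TUBB4B), chr19:55384183-55384242 (TMEM238 promoter interval), chr19:2476832-2476891 (GADD45B promoter interval), chr17:7651684-7651743 (ATP1B2 promoter interval), chr3:138946243-138946302 (FOXL2 coding sequence), chr14:102929080-102929139 (AMN promoter interval) and chr5:163060036-163060095 (intron of ENSG00000254186, nearest gene MRPL57P6).
TUBB4B: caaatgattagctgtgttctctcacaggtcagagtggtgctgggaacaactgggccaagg
TMEM238: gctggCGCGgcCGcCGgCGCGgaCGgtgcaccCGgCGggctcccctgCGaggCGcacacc
GADD45B: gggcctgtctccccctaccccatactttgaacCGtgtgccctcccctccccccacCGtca
ATP1B2: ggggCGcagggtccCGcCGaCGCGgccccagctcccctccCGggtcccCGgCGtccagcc
FOXL2: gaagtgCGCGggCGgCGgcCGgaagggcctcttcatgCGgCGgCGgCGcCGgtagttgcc
AMN: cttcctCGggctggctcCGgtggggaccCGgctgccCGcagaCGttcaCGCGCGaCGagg
MRPL57P6: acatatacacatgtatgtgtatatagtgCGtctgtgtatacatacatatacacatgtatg
CG dinucleotides number 11 at TMEM238, 10 at FOXL2, 9 at AMN and 8 at ATP1B2, but 2 at GADD45B, 1 at the MRPL57P6 interval and 0 at TUBB4B. These rises therefore do not all share a CG-rich centre.

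Intervals where CTCF gained on H3K27ac were mostly promoters (75.4%, against 36.4% of all tested intervals). Among them were many of stress, chaperone, histone and ribosomal protein genes. Intervals where CTCF lost against H3K27ac were mostly away from promoters, though not with GC-corrected offsets. Of those that lost before this correction, 37.6% held the CTCF motif, against 20.05% of all tested intervals. The response of a target is its log2 fold change of sorbitol over vehicle, and the difference is the CTCF response minus the H3K27ac response. By edgeR's quasi-likelihood test of the interaction, with Benjamini-Hochberg adjusted p under 0.05, 13944 of 67119 intervals (20.8%) had a difference. The CTCF response was above that of H3K27ac at 7340 intervals (10.9%) and below that of H3K27ac at 6604 (9.84%). Medians were 1.76 over the former and -2.63 over the latter, against -0.11 over all tested intervals. The smallest called differences were 0.43 and -0.47, and the median standard error was 0.87.

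This balance depended on scaling. Scaling to the total count gave 4803 above and 10637 below, moving the median difference of all intervals to -0.50. Offsets corrected for GC content gave 3949 above and 7354 below with a median of -0.23, and 675 of the called intervals changed sign. With these offsets 2332 of the intervals above and 3806 of those below were promoter intervals. Values below are on the within-target TMM scale, and the changes under those 2 scalings are given where they turn a direction.

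**Figure D1:**
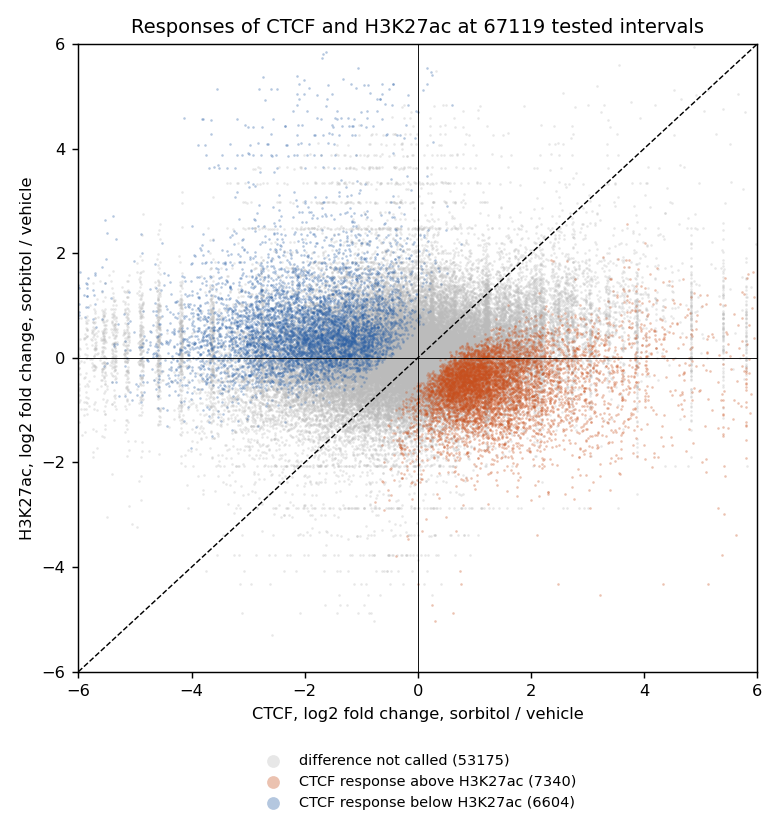
Each point is 1 of the 67119 tested intervals, with the CTCF log2 fold change (sorbitol over vehicle) on the x axis and that of H3K27ac on the y axis; orange and blue mark the 7340 and 6604 called differences, the dashed line marks equal responses, and 1644 intervals with a change beyond 6 on either axis are not drawn. The blue points spread mostly along the CTCF axis, while the orange points lie mostly at higher CTCF and lower H3K27ac; vertical and horizontal stripes are intervals with few counts.

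CTCF was the target that changed at most of these intervals. In the same fit CTCF rose at 8502 intervals (12.7%) and fell at 10111 (15.1%), while H3K27ac rose at 2405 (3.58%) and fell at 5382 (8.02%). Of the 6604 intervals with CTCF below H3K27ac, 5140 (77.8%) had a CTCF fall with no call for H3K27ac. Among these, 25.02% were promoter intervals (within 1 kb of a start site) and 37.5% held the CTCF consensus. Over all tested intervals these shares were 36.4% and 20.05%. Of the 7340 intervals with CTCF above H3K27ac, 3437 (46.8%) had a CTCF rise alone, 1269 (17.3%) an H3K27ac fall alone, and 2060 (28.1%) both.

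Some intervals had opposite changes of the 2 targets. The 2060 with higher CTCF and lower H3K27ac were promoter intervals in 89.4% of cases, with median changes of 1.18 for CTCF and -0.79 for H3K27ac. The converse, lower CTCF with higher H3K27ac, was called at 325 intervals, with medians of -1.49 and 0.97. Of these, 46.5% were promoter intervals and 38.8% held the CTCF consensus, against 36.4% and 20.05% of all tested intervals. Both targets were called on these same libraries, so the selection itself left little room for overlap. The libraries of the 2 treatments did not overlap for either target in 2038 of the 2060 and in 325 of the 325. Of all tested intervals, 9.20% and 9.32% had those patterns without overlap. The counts of 2060 and 325 rested on every H3K27ac library. They were 1358 and 116 without vehicle replicate 1, 1348 and 115 without vehicle replicate 2, 1263 and 108 without sorbitol replicate 1, and 1325 and 91 without sorbitol replicate 2.

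Named intervals with CTCF up and H3K27ac down were led by cytoskeletal, stress and membrane protein genes. Levels are counts per 1e6 (CPM) on library sizes scaled within a target. The largest difference lay in the coding sequence of TUBB4B, a beta-tubulin, at chr9:137242304-137242694. There CTCF was 1.49 and 0.757 CPM with vehicle and 119.5 and 119 CPM with sorbitol, and H3K27ac was 6.09 and 7.82 CPM with vehicle and 2.44 and 3.72 CPM with sorbitol. The treatments did not overlap for either target, as the naming rule required. The difference was 7.79 ± 0.50 (log2 with SE, edgeR adjusted p = 5.0e-22). Tubulin and actin genes have near-identical copies and pseudogenes, so counts at TUBB4B and ACTG1 may be split among them.

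At the start of TMEM238, a small transmembrane protein gene (chr19:55383844-55384582), CTCF was 2.23 and 2.27 CPM with vehicle and 150.5 and 146 CPM with sorbitol, and H3K27ac fell from 8.39 and 6.82 to 4.00 and 3.47 CPM. The difference was 7.04 ± 0.43. At GADD45B (chr19:2476257-2477466), a stress sensor that binds MAP kinase kinases, CTCF was 11.2 and 12.5 CPM with vehicle and 368 and 396 CPM with sorbitol, while H3K27ac was 29.1 and 27.6 CPM and then 8.0 and 6.03 CPM. This was the named interval with the smallest p (7.03 ± 0.24, adjusted p = 4.1e-38). H3K27ac stood above CTCF there with vehicle and far below it with sorbitol, though CPM of 2 antibodies do not share a scale.

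ACTG1, which encodes gamma-actin, had the most H3K27ac of these 5 (chr17:81511071-81511803): 61.6 and 61.9 CPM with vehicle and 19 and 16.9 CPM with sorbitol, with CTCF at 3.47 and 1.13 and then 62.0 and 74.7 CPM. Its difference was 6.52 ± 0.34. At ATP1B2, a sodium-potassium pump subunit (chr17:7651345-7652082), CTCF went from 2.73 and 1.13 to 69.3 and 72.6 CPM and H3K27ac from 6.25 and 9.31 to 2.11 and 4.24 CPM, a difference of 6.39 ± 0.52. None of these 5 held the CTCF consensus within 1 mismatch.

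Other antibodies read these sites too. RAD21, the cohesin subunit, rose by 4.88 at TUBB4B (edgeR adjusted p = 0.00043), by 4.22 at GADD45B, by 2.93 at ACTG1 and by 3.03 at ATP1B2. The eGFP-YAP signal rose by 4.62, 4.72, 1.80 and 2.08 at the same 4 intervals. At TMEM238, eGFP-YAP changed by 1.74 without passing the test (edgeR adjusted p = 0.29), and RAD21 was too low to test. Kept counts were 1.34 and 0.60 M with vehicle and 0.61 and 0.52 M with sorbitol for RAD21. For eGFP-YAP they were 1.96 and 1.65 M and then 0.80 and 0.66 M. The mitochondrial share went from 34.3% and 38.5% to 44.8% and 46.0% for RAD21, and from 36.5% and 38.1% to 55.4% and 57.8% for eGFP-YAP. The part of these in the 2 readouts was not tested.

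The 5 named intervals with the converse pattern had little H3K27ac in any library (at most 8.11 CPM). The same held at TUBB4B, TMEM238 and ATP1B2 (at most 9.31 CPM). At SLC41A1, a magnesium transporter gene (chr1:205791503-205791998, overlapping its UTR), CTCF was 23.3 and 29.5 CPM with vehicle and 2.95 and 2.07 CPM with sorbitol, and H3K27ac was 1.98 and 2.33 CPM and then 6.00 and 6.03 CPM. The difference was -4.85 ± 0.64 (adjusted p = 6.7e-09). At ACAD10, an acyl-CoA dehydrogenase gene (chr12:111752948-111753666), whose motif is shown above, CTCF was 28.8 and 20.4 and then 2.95 and 3.46 CPM, and H3K27ac was 2.14 and 1.66 and then 6.33 and 5.90 CPM; the difference was -4.62 ± 0.63. H3K27ac was at most 6.33 CPM in all libraries at both.

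Near GPR37L1, an orphan receptor gene (chr1:202118859-202119557), CTCF was the highest of this set at 70.6 and 55.2 CPM with vehicle, and it was 10.3 and 6.22 CPM with sorbitol. H3K27ac there was 2.96 and 3.33 and then 6.22 and 6.67 CPM (difference -3.97 ± 0.45). Near COX6CP11, a pseudogene (chr14:77654700-77655445), CTCF was 36.7 and 46.9 and then 4.43 and 5.53 CPM, with H3K27ac at 4.77 and 2.66 and then 7.45 and 7.06 CPM (difference -4.00 ± 0.52). RAD21 changed by -2.90 and -2.98 at these 2 intervals, short of the threshold (adjusted p = 0.056 and 0.054). At the start of SULF2, a heparan sulfate sulfatase gene (chr20:47786410-47786910), CTCF counts were 83 and 45 before and 3 and 2 after sorbitol. The CTCF change there was -3.39 ± 0.57, and the H3K27ac change was 1.12 ± 0.37.

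**Figure D2:**
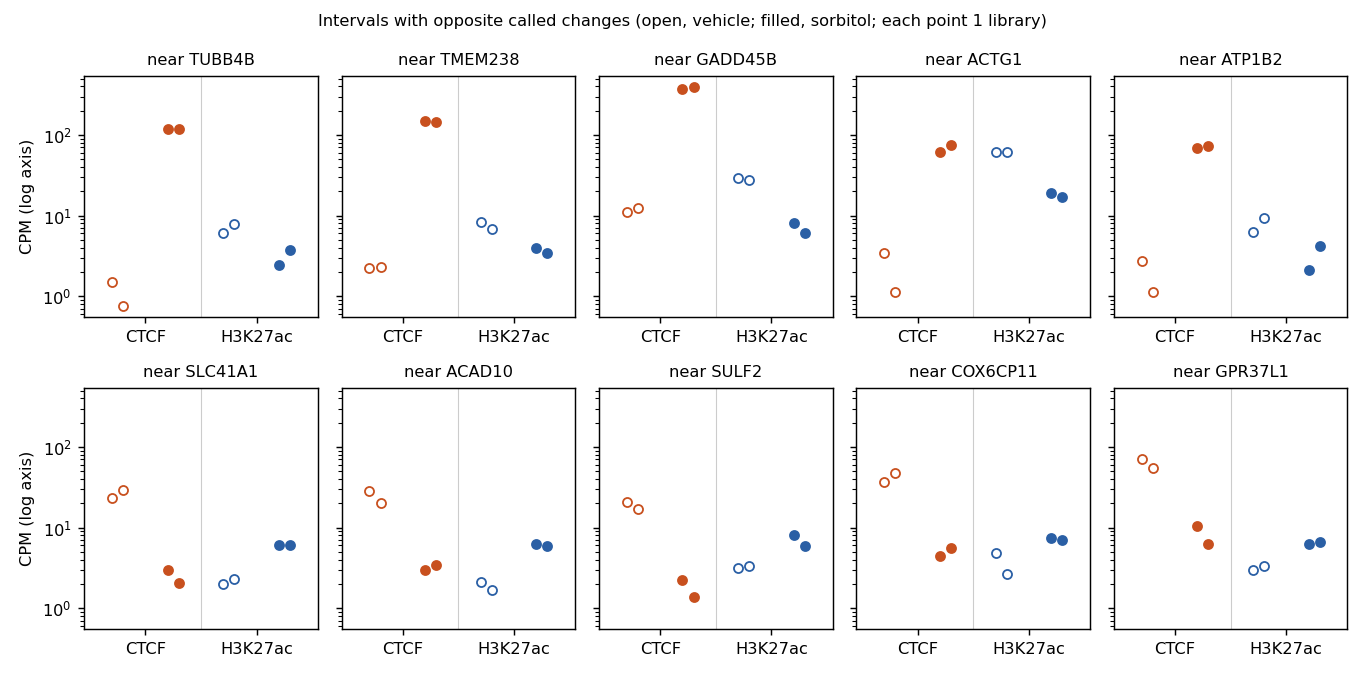
CPM (log axis) in each of the 8 libraries at the 10 named intervals where both targets changed in opposite directions; open points are vehicle, filled points sorbitol, orange CTCF and blue H3K27ac, each point 1 library. In the upper row CTCF rises, to between 62.0 and 396 CPM with sorbitol, and H3K27ac falls; in the lower row CTCF falls, to between 1.38 and 10.3 CPM, and H3K27ac rises to no more than 8.11 CPM.

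Where CTCF alone was called, the largest differences were at intervals whose CTCF libraries of 1 treatment had 0 counts. The rises named here passed the count filter only through their CTCF sorbitol libraries, which fixed the direction of the change in advance. CTCF rose from 0 and 0 counts to 63 and 74 at AMN, the gene of the cobalamin receptor subunit amnionless (chr14:102928810-102929410), at least 43.0-fold. FOXL2, an ovarian forkhead factor gene (chr3:138946134-138946411), went from 0 and 0 to 13 and 16 counts, at least 9.10-fold. The AT-rich intron interval nearest MRPL57P6 (chr5:163059899-163060232) went from 0 and 0 to 15 and 18 counts, at least 10.4-fold; its difference lost the call without H3K27ac vehicle replicate 2 (adjusted p = 1.0).

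At 3 other named intervals no CTCF count was left with sorbitol. CTCF counts went from 96 and 52 to 0 and 0 at ENSG00000287378 (chr3:100254088-100254785), at least 9.82-fold lower, and from 31 and 42 to 0 and 0 near CDK1 (chr10:60768887-60769274), at least 5.33-fold lower. The CDK1 interval passed the count filter only through its CTCF vehicle libraries, which fixed the direction of its change in advance. Near STEAP3 (chr2:119218528-119219134), whose best match had 2 mismatches, CTCF counts went from 105 and 49 to 0 and 0, at least 10.1-fold lower. H3K27ac was at most 2.82 CPM in its 4 libraries at the first pair and between 3.16 and 5.26 CPM near STEAP3. Bounds use 3 counts for a library at 0 and cover counting error only.

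Differences with a call for H3K27ac alone numbered 404 with a rise and 1269 with a fall, and CTCF was close to the floor at most of those named. H3K27ac rose by 1.73 ± 0.39 in an intron of NPAS3, a neuronal transcription factor gene. H3K27ac fell by 1.45 ± 0.45 in an intron of ZNF124 (nearest start site FGFR3P6), by 2.10 ± 0.48 near CCNE1, the gene of cyclin E1, and by 2.46 ± 0.43 at the histone gene H2BC11. CTCF had at most 13 counts in any library at these 4. The CCNE1 interval passed the count filter only through its H3K27ac vehicle libraries, which fixed the direction of its H3K27ac change in advance. The difference lost its call at CCNE1 without CTCF sorbitol replicate 1 (3.84). At FGFR3P6 it was lost without either CTCF vehicle library, CTCF sorbitol replicate 2 or H3K27ac sorbitol replicate 1 (1.45 to 6.90).

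Promoters as a class had CTCF gaining on H3K27ac on the within-target TMM scale. Of 24408 promoter intervals, 5535 (22.7%) were above and 1779 (7.29%) below, against 1805 (4.23%) and 4825 (11.3%) of the 42711 other intervals. The median difference was 0.37 over promoter intervals, from 0.26 for CTCF and -0.11 for H3K27ac, and -0.48 over the others, from -0.36 and 0.17. The promoter median was -0.03 with scaling to the total count and -0.17 with GC-corrected offsets, so its sign did not hold, while that of the others stayed negative under both. GC correction also turned the promoter counts, to 2332 above and 3806 below. Intervals strong in both targets (top 25% of CPM per kb in each) were above in 2176 of 4062 cases (53.6%) and below in 447, with a median of 0.83. With GC-corrected offsets these were 1150 above and 1035 below, with a median of 0.07.

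The same contrast was taken inside each library, where scaling cancels. The median log2 CPM of promoter intervals minus that of the others was 0.89 and 0.87 in the CTCF vehicle libraries and 1.57 and 1.67 in the CTCF sorbitol libraries. For H3K27ac it was 2.91 and 2.90 with vehicle and 2.501 and 2.504 with sorbitol. Promoters thus gained 0.74 on other intervals in CTCF and lost 0.40 in H3K27ac, a difference of 1.14 ± 0.05 (SE). The treatments did not overlap in either target, and the exact two-sided permutation p of 0.0556 is the smallest that 36 relabellings allow. With GC-corrected values the difference was 0.21.

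Intervals with the CTCF motif went the other way. Of 13455 intervals that hold the consensus with at most 1 mismatch, 774 (5.75%) were above and 2482 (18.4%) below, against 6566 and 4122 of 53664 without it. Those without it turned to 3480 above and 4866 below with GC-corrected offsets, with a median of -0.12 against -0.63 with the consensus. Scaling to the total count gave 4379 and 6651 without it, with a median of -0.32 against -1.14. The median difference was -0.75 with the consensus, and was negative under each scaling tried. Distal intervals with the consensus had a median of -0.95 and were below in 1948 of 10013 cases, and promoter intervals with it had a median of -0.18. Promoter intervals without the consensus stood at 0.45, which turned to -0.10 with GC-corrected offsets. Inside the libraries, intervals with the consensus minus those without gave 1.91 and 1.96 for CTCF with vehicle, and 1.39 and 1.38 with sorbitol. The values for H3K27ac were -0.97 and -0.92, then -0.84 and -0.80. The difference of the changes was -0.67 ± 0.04 (exact two-sided permutation p = 0.0556, again the smallest possible, and unchanged by Benjamini-Hochberg adjustment over these 2 contrasts) and was -0.44 with GC-corrected values. It shrank to -0.15 when no mismatch was allowed.

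**Figure D3:**
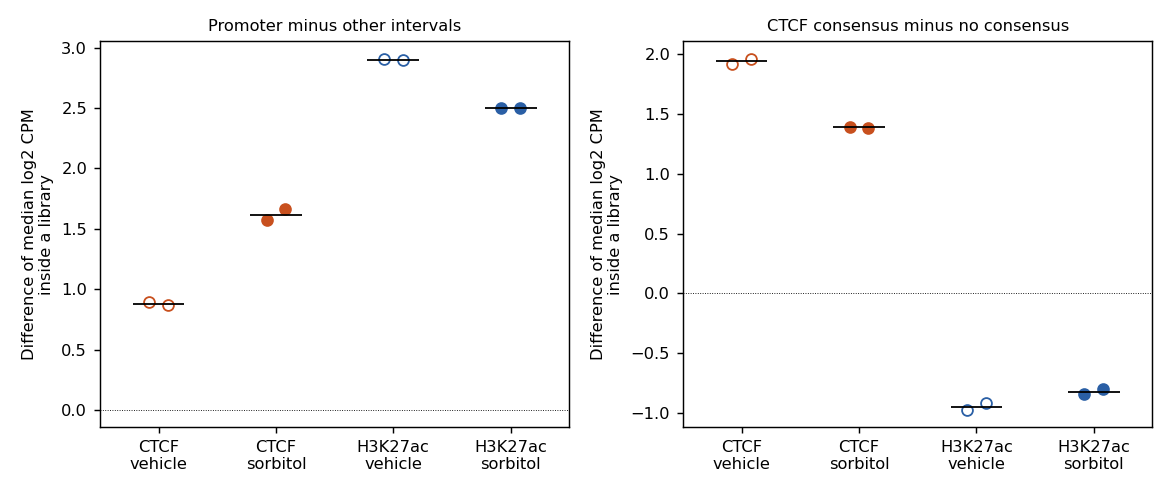
Difference of median log2 CPM between 2 classes of intervals inside each of the 8 libraries (open vehicle, filled sorbitol; bars, mean of 2), for promoter minus other intervals (left) and intervals with minus without the CTCF consensus (right). With sorbitol the CTCF points move towards promoters (0.88 to 1.62 on average) and away from the consensus (1.94 to 1.38), while the H3K27ac points move less and the opposite way.

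GC content went with both responses. From the lowest to the highest decile of GC, the median CTCF change ran from -1.18 to 0.63 and that of H3K27ac from 0.24 to -0.24. The median difference rose in each step, from -1.45 to 0.89. The share of intervals above was 1.85% in the lowest decile, 1.68% in the next and 37.0% in the highest. The median difference was -1.09 over promoter intervals and -1.496 over distal ones in the lowest decile, and 0.86 and 1.03 in the highest. With GC-corrected offsets the decile medians lay between -0.15 and -0.36. The correction removes any change that goes with GC, whatever its source, and the sources cannot be told apart here.

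**Figure D4:**
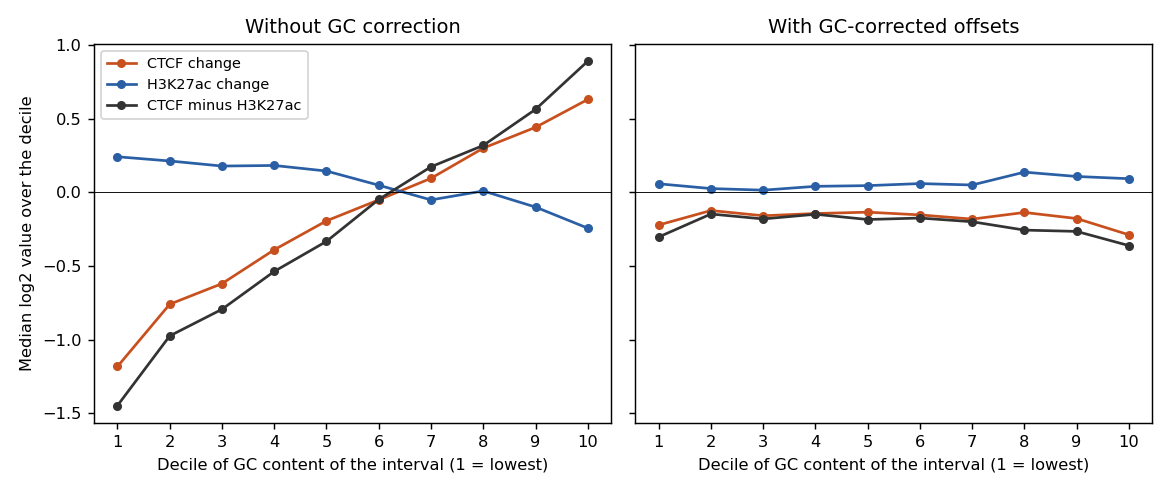
Median log2 change of CTCF (orange) and H3K27ac (blue) and median difference (dark) over the tested intervals in 10 deciles of GC content, without (left) and with (right) GC-corrected offsets. Uncorrected, CTCF climbs from -1.18 to 0.63 while H3K27ac drops from 0.24 to -0.24; corrected, both are nearly flat.

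The sequences of the called intervals differed in the same way. Median GC was 65.3% over intervals above, 50.8% over intervals below and 54.8% over all tested. The central 300 bp held a median of 24, 5 and 7 CG dinucleotides, respectively. The consensus lay in the central 300 bp of 4.86% of intervals above, 32.0% of those below and 17.9% of all. The AP-1 motif TGANTCA was found on either strand in 3.64%, 8.15% and 8.08%, and the TEAD motif GGAATG in 9.70%, 16.2% and 14.1%. These matches describe the letters and not binding.

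RAD21 and eGFP-YAP, which the test did not use, were compared at the same intervals in fits of their own. RAD21 rose at 311 of 4780 intervals tested for it among those above (6.51%) and fell at 2, against 2.78% higher and 1.19% lower (3.97% in all) over its 14918 tested intervals. Among those below, it fell at 123 of 2124 (5.79%) and rose at 1. The median RAD21 change was 0.50, -1.03 and 0.01 over intervals above, below and all. The eGFP-YAP signal rose at 593 of 6068 intervals above (9.77%) and 10 of 1792 below (0.56%), against 4.57% higher and 1.51% lower (6.08% in all) over the 21840 tested. Its medians of 0.12 and -0.03 were close to the -0.02 of all intervals. Whether GC content, depth or the mitochondrial share had a part in these readouts was not tested.

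Stress early genes and histone genes had the largest shares of intervals above among the gene lists, which are described through the intervals within 1 kb of their start sites. All promoter intervals, of which the lists are a part, were above in 22.7% and below in 7.29% of cases, with a median of 0.37. With GC-corrected offsets 2332 of these 24408 were above and 3806 below, with a median of -0.17. Scaling to the total count gave 3641 and 3263, with a median of -0.03. The stress list holds 33 immediate early and stress genes. CTCF was above H3K27ac at 39 of 58 tested intervals (67.2%, against 10.9% of all) and below at 0, with a median difference of 1.75, from 1.34 for CTCF and -0.64 for H3K27ac. At 26 of the 58, CTCF rose and H3K27ac fell. With GC-corrected offsets 26 were above and 2 below, and the median was 0.81. Of the 32 genes tested, 26 had an interval above.

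JUND, an AP-1 subunit (chr19:18281097-18282609), had 38.7 and 43.1 CPM of CTCF with vehicle and 283 and 253 with sorbitol, and H3K27ac of 64.5 and 75.8 and then 18.9 and 20.02 CPM. The difference was 4.57 ± 0.19 (edgeR adjusted p = 3.4e-33). At KLF4, a zinc finger transcription factor (chr9:107487445-107489133), CTCF was 5.21 and 7.94 and then 154 and 178 CPM, and H3K27ac 13.2 and 18.0 and then 9.56 and 8.09 CPM, a difference of 5.52 ± 0.31. EGR1, an immediate early zinc finger factor (chr5:138463916-138466561), had much CTCF signal from the start: 157 and 166 CPM with vehicle, then 554 and 546 with sorbitol. Its H3K27ac was 124 and 124 and then 48.1 and 50.6 CPM, and its difference was 3.10 ± 0.15.

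After GADD45B, JUND and KLF4, the largest differences by gene were 4.54 at IER2, 4.25 at FOSL1, 4.24 at FOSB, 3.99 at KLF6, 3.94 at IER3 and 3.73 at DUSP5, a phosphatase of MAP kinases. At the start sites of FOSB, FOS and BTG2, CTCF rose while the H3K27ac change passed no test. FOS, the partner of JUN in AP-1, had 11.4 and 9.46 and then 44.3 and 38.0 CPM of CTCF at its start, and 18.1 and 12.5 and then 14 and 17.7 CPM of H3K27ac, whose libraries overlapped. BTG2, an antiproliferative cofactor, had H3K27ac of 119 and 107 and then 94.0 and 98.7 CPM (adjusted p = 0.19).

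Chaperone genes, the heat shock proteins and their partners, were above at 12 of 22 intervals (54.5%) and below at 0, with a median difference of 1.13 (0.91 for CTCF and -0.37 for H3K27ac) that was 0.91 with GC-corrected offsets. DNAJB1, an HSP40 cochaperone (chr19:14517610-14518985), had CTCF of 34.5 and 23.1 and then 117 and 125 CPM, and H3K27ac of 75.1 and 79.8 and then 35.7 and 34.4 CPM. Its difference was 3.17 ± 0.21, and 1.86 after GC correction. HSPA8, the constitutive HSP70 (chr11:123061436-123063167), had CTCF of 31.0 and 21.9 and then 100.3 and 127 CPM, and H3K27ac of 179.9 and 179 and then 103 and 87.0 CPM, a difference of 2.98 ± 0.20. HSPA5, the HSP70 of the endoplasmic reticulum, had a CTCF rise of 1.65 with an H3K27ac change of 0.00. HSPA1A and HSPA1B are near-identical, so their counts are uncertain.

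Histone genes, the replication-dependent clusters, had the highest median of the lists at 2.30, both on the TMM scale and with GC-corrected offsets. CTCF was above at 37 of 58 intervals (63.8%) and below at 1, with medians of 1.43 for CTCF and -0.94 for H3K27ac. At H3C14 (chr1:149840143-149841503) CTCF was 21.3 and 19.3 and then 235 and 239 CPM, and H3K27ac 87.4 and 104 and then 25 and 25.8 CPM (difference 5.45 ± 0.20). The neighbouring H2AC18 interval (chr1:149841651-149843418) had a difference of 4.75 ± 0.18. Histone genes of a class are close copies of each other, so the share of each gene is uncertain.

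Ribosomal protein genes were above at 47 of 117 intervals (40.2%) and below at 4, with a median of 0.78 that came from CTCF (0.74) more than from H3K27ac (-0.07). At RPS2, of the small subunit (chr16:1964211-1965260), CTCF was 10.4 and 15.9 and then 76.0 and 106 CPM, and H3K27ac 112 and 112 and then 68.6 and 61.5 CPM. The difference was 3.63 ± 0.23. At RPL28, of the large subunit, it was 3.18 ± 0.24. The list's median was 0.49 with GC-corrected offsets and 0.38 with scaling to the total count.

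Zinc finger genes of chromosome 19, many of them KRAB repressors in tandem clusters, had a difference of another make. CTCF was above at 77 of 224 intervals (34.4%) and below at 4, with a median of 1.31, but the median CTCF change was -0.06 and that of H3K27ac -1.26. H3K27ac fell at 147 of the 224 and CTCF rose at 28. At the promoter shared by FIZ1 and ZNF524 (chr19:55598901-55600436), H3K27ac was 82.6 and 87.0 CPM with vehicle and 25.7 and 20.2 CPM with sorbitol, and CTCF was 35.7 and 35.6 and then 72.3 and 84.4 CPM (difference 3.02 ± 0.22). With GC-corrected offsets the list's median was 0.81, with 43 above and 6 below.

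Osmotic genes are mainly those of ion and osmolyte transporters and their kinases, with others such as NFAT5 and HSPA4L. Before GC correction they were called about as often as promoter intervals in general. Of 26 intervals 6 were above (23.1%) and 2 below (7.69%). With GC-corrected offsets 3 were above and 8 below, against 2332 and 3806 of all 24408 promoter intervals. The median of 0.35 turned to -0.51 with GC-corrected offsets and to -0.05 with scaling to the total count. OXSR1, a kinase of cation-chloride cotransporters (chr3:38164757-38166399), had CTCF of 19.6 and 12.9 and then 36.9 and 26.97 CPM, and H3K27ac of 129 and 127 and then 87.0 and 80.6 CPM (difference 1.53 ± 0.27, and 0.90 after GC correction). The promoter that SLC5A3, the myo-inositol transporter gene, shares with MRPS6 (chr21:34073065-34074233) had a difference of 1.64 ± 0.31, which was -0.17 after GC correction. WNK1, a kinase that senses osmotic and chloride changes, and HSPA4L had differences of -1.498 and -1.66, from CTCF falls of 1.25 and 1.63. At NFAT5, the osmotic stress transcription factor, the difference was 0.18 ± 0.26 and passed no test.

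YAP target genes had calls in both directions. Of 36 intervals 5 were above (13.9%) and 3 below (8.33%), with a median of -0.15, against 0.37 for all promoter intervals and -0.11 for all intervals. With GC-corrected offsets 1 was above and 6 below, with a median of -0.62. All 24408 promoter intervals then had 2332 above and 3806 below, with a median of -0.17. Scaling to the total count gave 3 and 7 for the list, with a median of -0.54. It gave 3641 and 3263 for promoter intervals, and 4803 and 10637 for all 67119 intervals, with medians of -0.03 and -0.50. CCN2, a matricellular growth factor and standard YAP target (chr6:131950279-131951693), was below: CTCF was 45.1 and 37.4 and then 22.1 and 23.5 CPM, and H3K27ac 37.7 and 33.6 and then 45.8 and 44.5 CPM, a change that did not pass (adjusted p = 0.11). Its difference was -1.21 ± 0.27, and that of its relative CCN1 -0.75 ± 0.23. CRIM1, a BMP-binding membrane protein, was above at 2.01 ± 0.30, and ARHGEF17, a guanine nucleotide exchange factor, at 1.12 ± 0.19. These were 0.79 and 0.23 after GC correction, and the latter then passed no test (adjusted p = 0.45).

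Genes of cohesin, CTCF and their regulators held opposite cases, at shares near those of all promoter intervals. Of 31 intervals 6 were above (19.4%) and 2 below (6.45%). With GC-corrected offsets 4 were above and 7 below, against 2332 and 3806 of all 24408 promoter intervals. The median of 0.39 was -0.21 with GC-corrected offsets and -0.01 with scaling to the total count. At PDS5A, a cohesin release factor (chr4:39976340-39978285), CTCF was 138 and 130.1 CPM with vehicle and 42.0 and 53.9 with sorbitol, while H3K27ac was 127 and 123 and then 143 and 141 CPM and passed no test. The difference was -1.67 ± 0.19, and -2.72 after GC correction. STAG1, a cohesin subunit, was also below (-0.72 ± 0.17), although both targets fell there. MAZ, a zinc finger protein found at CTCF sites, was above at chr16:29805191-29806408, with CTCF of 65.4 and 61.7 and then 115 and 127 CPM and H3K27ac of 112 and 115 and then 55.5 and 60.7 CPM (1.89 ± 0.18, and 0.56 after GC correction). At the CTCF gene's own start the difference of 0.41 ± 0.18 passed no test, with an H3K27ac fall of 0.65.

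**Figure D5:**
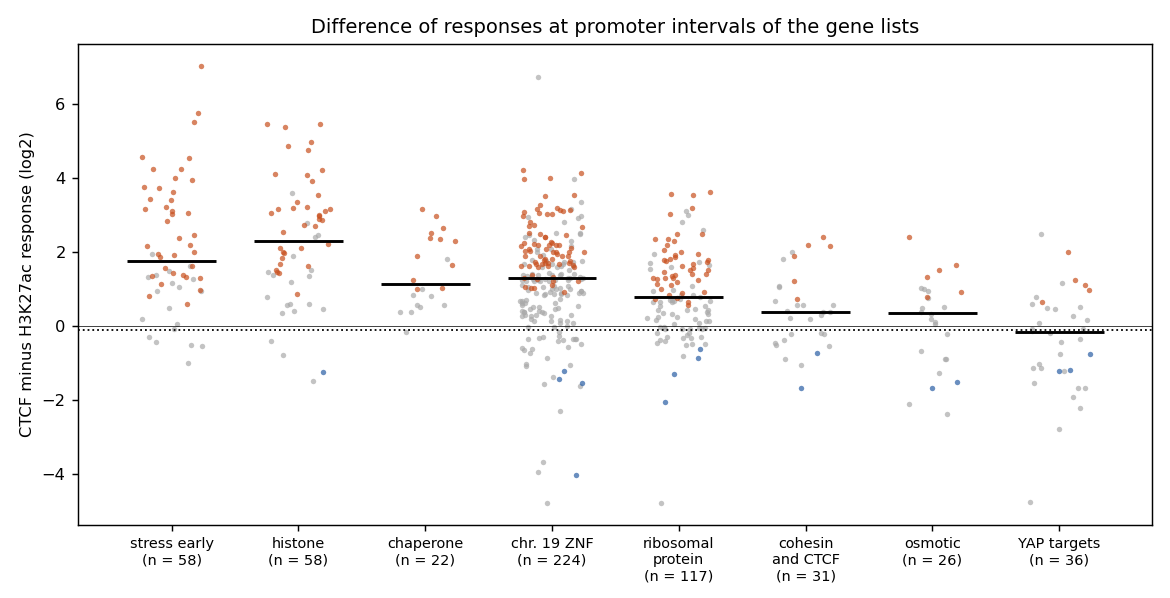
Difference of the CTCF and H3K27ac responses (log2) at each tested promoter interval of 8 gene lists; orange points were called above, blue points below and grey points not called, bars are list medians, and the dotted line is the median of all tested intervals (-0.11). The stress, histone and chaperone lists lie mostly above that line, with medians of 1.75, 2.30 and 1.13, and the YAP targets lie around it with a median of -0.15.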

How the data were processed

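The deposited table holds raw counts of reads per shared interval, which the authors did not scale between libraries. Per the submitters' processing notes, Trim Galore, FastQC, BWA 0.7.17, SAMtools, Picard, bedtools 2.31.1, MACS2 2.2.6 and hg38 were used, with no role given; whether peaks were called per library is not given in the sources used here. Interval starts count from 0 in the table and from 1 in the text. Genes and start sites came from GENCODE 44, sequence from hg38.

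The 8 libraries were fitted in edgeR 4.0.16 (R 4.3.3, glmQLFit, robust, glmQLFTest, two-sided), with filterByExpr (minimum count 10) and TMM factors within each target. The contrast was the CTCF response minus the H3K27ac response, with no covariate, and p-values were Benjamini-Hochberg adjusted over all tested intervals (0.05). SEs come from the F statistic. RAD21 and eGFP-YAP had separate fits of 4 libraries each. Contrasts inside libraries used log2 CPM with a pseudocount of 2 counts. On simulated counts for 67119 intervals, 20% of 200 differences of 2-fold and 59% of 200 of 4-fold were recovered, and 8.67% of calls were intervals left unchanged. Only CTCF sorbitol counts were altered, at intervals over a minimum mean count, so recovery at weaker intervals was not measured. Replicates differed by more than sampling noise (chi-square per degree of freedom 1.89 to 2.41).

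Members and lists were chosen with earlier results of these data known. Intervals were named if both treatments' libraries did not overlap for each called target and its mean CPM exceeded the median: the 5 largest differences for each opposite pattern, 3 for each pattern with 1 called target, at most 1 per nearest gene, and the 2 smallest p per list, none on chromosome 8. Some intervals and markers that these rules name are not reported here. Other listed genes were chosen after their values were seen. Alternatives were DESeq2 1.42.0, other scalings and filters, GC-corrected offsets (lowess, span 0.3), the replicate block and leaving out each library.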

Additional observations from a re-analysis of the deposited data

Results flagged for a closer look

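The responses of the 2 targets to the same treatment differed by the interaction test itself at 7340 intervals with CTCF above H3K27ac and at 6604 with CTCF below. Outside the measured intervals, mitochondrial intervals took 33.3% of the counts of the CTCF sorbitol libraries, against 17.8% with vehicle. The part of that share in the difference was not tested.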

How the results depend on the processing

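Counts are given in the order CTCF above, CTCF below, CTCF higher with H3K27ac lower, and CTCF lower with H3K27ac higher; they were 7340, 6604, 2060 and 325. Scaling to the total count gave 4803, 10637, 1174 and 775, and a mean of at least 50 counts, which tests fewer intervals, gave 4019, 3704, 1333 and 638. With GC-corrected offsets 3949 were above and 771 and 810 opposite, and with the replicate block added 3511 were above and 655 and 611 opposite. One fit on all 16 libraries gave 4207 below and 1283 and 87 opposite. The last count was 160 with scaling to the weakest 25% of intervals, 135 with DESeq2 and 533 when each target had to pass the filter. Leaving out 1 library gave 5974 to 6608, 4556 to 5524, 1263 to 1960 and 91 to 332. The promoter contrast inside libraries was 0.95 with a mean of at least 50 counts, 1.24 with the filter in each target, 1.21 with a pseudocount of 0.5 and 0.21 with GC correction. The consensus contrast was -0.71, -0.90, -0.71 and -0.44 in these settings, -0.61 with no filter, -0.15 with no mismatch, and -0.65 to -0.70 with a library left out. GC correction and changes of filter are settings only, and the cause of these contrasts was not tested. The MRPS6 and SLC5A3 interval reversed to -0.17 with GC correction and -0.19 with the block too. Of 750 values for 37 named intervals, 733 kept direction and call, 15 lost the call and 2 reversed. Deviations by replicate number were close to uncorrelated between groups (-0.02 to 0.01), which cannot show whether the samples were paired. The replicate block gave 6804 above and 5707 below. With 1.52 to 3.62 M (1e6) kept counts, CTCF depth limits weak intervals most, and a group at 0 counts gives bounds only.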

Other observations

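Chromosomes differed in how often CTCF gained on H3K27ac. On chromosome 19, which is gene-dense and GC-rich, 972 of 2936 tested intervals (33.1%) were above and 99 (3.37%) below, with a median difference of 0.90, which was 0.39 with GC-corrected offsets. Chromosomes 17 and 16 followed with 19.6% and 19.2% above, and chromosome 4 had the lowest share at 5.07%. With GC-corrected offsets chromosome 17 had 358 intervals above and 371 below, and chromosome 16 had 205 and 276, its median turning from 0.31 to -0.05.

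Promoters of the kidney developmental factors that mark this line went both ways before GC correction. At PAX2 the CTCF response was below that of H3K27ac (-1.35 ± 0.32, log2, SE; edgeR adjusted p = 0.00093), with CTCF of 29.0 and 29.5 CPM with vehicle and 16.97 and 9.68 CPM with sorbitol and H3K27ac of 38.0 and 35.6 and then 43.9 and 40.9 CPM. At the start of SALL1 it was above (1.76 ± 0.34), with CTCF of 8.92 and 9.83 and then 18.4 and 24.2 CPM and H3K27ac of 56.5 and 62.5 and then 44.4 and 36.3 CPM. With GC-corrected offsets these differences were -2.31 and 0.48, and SALL1 lost its call (adjusted p = 0.36).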
